A study of Homo sapiens with 12 samples.

Results

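The toll-like receptors of B cells and the adaptor arm that signals for them were followed in SUDHL6, a long-established human line grown from a germinal centre type of diffuse large B-cell lymphoma. The 10 genes were taken by symbol from the deposited count tables, which share 23368 symbols: TLR1, TLR6, TLR10 and CD180 as receptors of the cell surface, TLR7 and TLR9 as receptors of the endosome, UNC93B1 as their carrier, and MYD88, IRAK4 and IRAK1 as the signalling arm. Cells received vehicle (0.01% DMSO) or GSK591 at 200 nM, which blocks the enzyme PRMT5 that methylates arginines in proteins. Treatment lasted 24 h or 96 h, and poly(A) RNA was sequenced. Each of the 4 groups held 3 libraries of this 1 line, 12 in all, and the title of the series ties PRMT5 to the germinal centre repressor BCL6. The labels do not say whether libraries of 1 group were grown apart, and p-values therefore cover only the spread between these libraries, which may be technical.

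Toll-like receptors bind molecules of microbes through leucine-rich repeats outside the cytoplasm, and recruit the adaptor MyD88 through a shared cytoplasmic domain. MyD88 assembles the kinases IRAK4 and IRAK1, which pass the signal through TRAF6 and the IKK complex to NF-kB and to interferon regulatory factors. B cells use this route beside their antigen receptor: TLR7 senses single-stranded RNA and TLR9 senses CpG DNA in endosomes, both brought there by UNC93B1, while CD180 is a receptor-like surface protein that needs its partner LY86.

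TLR1, TLR6 and TLR10 are neighbouring genes on chromosome 4 in the RefSeq annotation (GRCh38.p14) and are close relatives in sequence, which bears on how their reads can be counted. The longest stretch that the TLR1 and TLR6 coding sequences share without a difference is 218 bases. The first 90 bases of it, from GENCODE release 29 (GRCh38), are shown with the same window of TLR10, and capitals mark the bases of TLR10 that differ from TLR1.
TLR1 (coding bases 1379 to 1468): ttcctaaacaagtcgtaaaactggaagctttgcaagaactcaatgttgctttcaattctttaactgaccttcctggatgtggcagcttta
TLR6 (coding bases 1394 to 1483): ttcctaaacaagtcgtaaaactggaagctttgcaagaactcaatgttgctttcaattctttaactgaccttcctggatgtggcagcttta
TLR10 (coding bases 1373 to 1462): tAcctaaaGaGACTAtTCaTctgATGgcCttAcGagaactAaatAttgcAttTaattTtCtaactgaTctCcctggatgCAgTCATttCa
TLR1 and TLR6 do not differ in this window, and TLR10 differs from TLR1 at 31 of 90 bases. Of all stretches of 50 bases in the TLR1 transcript, 8.5% also occur in TLR6, and 5.28% of those of TLR6 occur in other genes, chiefly TLR1, so a small part of the reads of either gene could belong to the other. UNC93B1 shared 19.4% of its stretches with other genes, chiefly its pseudogene copies UNC93B7, UNC93B6 and UNC93B3. TLR9 shared 84.9% with AC097637.1, an annotated gene over the same locus, and no source used here states whether the counting used strand. The other 6 members shared at most 2.69%, and MYD88 shared 0%. Values of TLR9 and UNC93B1 are uncertain to that extent.

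All 10 genes stood above 1 CPM (reads of the gene per M, mega, of counted reads, after TMM scaling of the library sizes within each time) in every group, and none had to be marked as low. Divided by the length of the exons in GENCODE release 29, the vehicle libraries of 24 h ranked IRAK1 first, at 46.2 ± 0.621 CPM per kb (SD, n = 3), then TLR10 at 37.5 ± 0.195 and MYD88 at 32.8 ± 0.791. UNC93B1 (20.8 ± 0.491), TLR9 (18.6 ± 0.798), CD180 (17.8 ± 0.434), TLR1 (14.9 ± 0.196), IRAK4 (13.9 ± 0.219) and TLR6 (12.3 ± 0.288 CPM per kb) followed. TLR7 was last at 1.20 ± 0.163 CPM per kb, below every library of the other members. In this order, TLR9 and CD180 were the only neighbours whose 3 libraries overlapped. After 96 h of GSK591, TLR10 led at 44.9 ± 6.31 CPM per kb, overlapping IRAK1 at 40.3 ± 1.91. TLR7 was again last, at 1.30 ± 0.166 CPM per kb.

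The label of the cells was checked against marker genes. Of 7 B-cell markers, 6 stood above 1 CPM in every group, with a summed level between 6802 and 8425 CPM per library; the complement receptor CR2 stood below 1 CPM. Markers of plasmacytoid dendritic cells, which also carry TLR7 and TLR9, summed to at most 0.140 CPM per library, with 3 of 4 at 0 counts in every group. Of 8 markers of monocytes, macrophages and granulocytes, all had a mean below 1 CPM in every group, and CD14 reached 1.15 CPM in 1 library. Total counts lay between 48.5 and 64.4 M in 11 libraries, and vehicle library 1 at 96 h held 548 M. Library 2 of each 96 h group stood apart from the other 2 over all genes (chi-square per degree of freedom of 16.6 and 24.6 within vehicle and 31.6 and 39.8 within GSK591, against 2.97 and 9.12 for the remaining pairs), so the 96 h values of the members are also given without both.

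**Figure D1:**
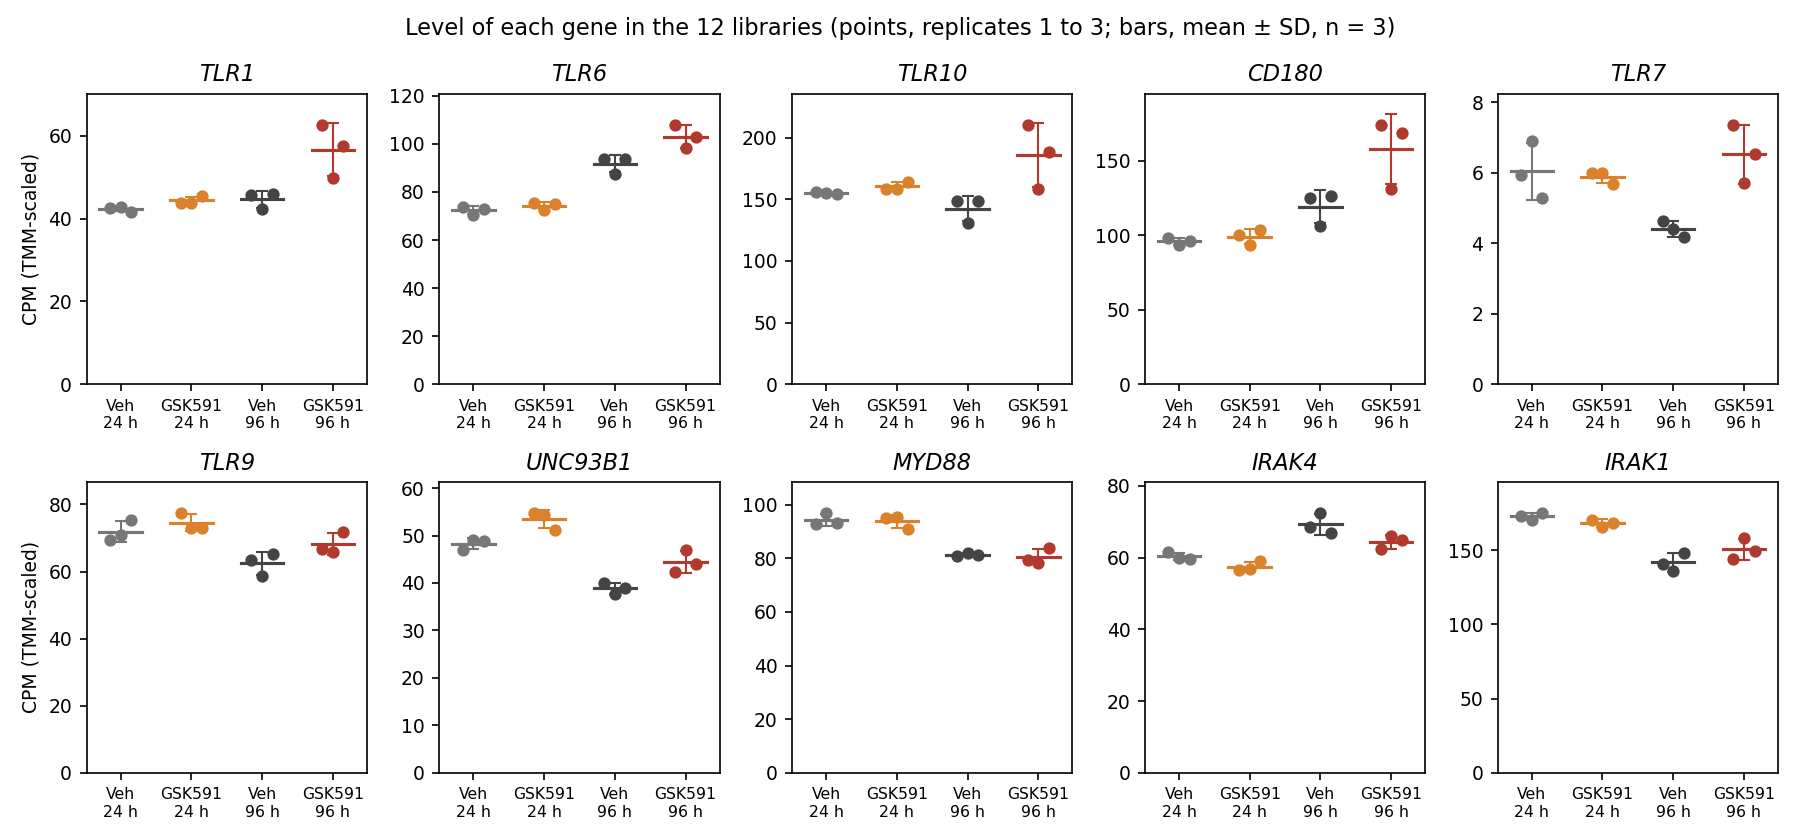
Each panel shows 1 gene: CPM after TMM scaling (vertical axis, linear, from 0) in the vehicle and GSK591 libraries of 24 h and 96 h, with points for the 3 libraries and bars for the mean and SD. The 4 surface receptor genes sit apart from vehicle at 96 h, where library 2 is the lowest point of both groups, while MYD88 overlaps at both times.

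The first question was whether the receptors and their arm differed from vehicle after 24 h. Only UNC93B1, the carrier of TLR7 and TLR9, passed the threshold, an adjusted p under 0.05 in edgeR's two-sided quasi-likelihood test over all genes, for which "called" stands below. It stood at 47.0, 49.0 and 48.8 CPM in vehicle and at 54.7, 54.3 and 51.3 CPM with GSK591. All 3 treated libraries lay above all 3 vehicle libraries, with a log2 fold change of 0.15 ± 0.03 (SE) and an adjusted p of 0.00563. The member count of 1 higher and 0 lower of 10 stands beside 7.44% higher and 7.29% lower among the 13173 genes tested at 24 h (14.7% in either direction). At an unadjusted p under 0.05, edgeR had UNC93B1 and TLR1 higher and 1 member lower, IRAK4. No share of all genes at this cut is given here. DESeq2, at an adjusted p under 0.05, called 0 lower. In a fit of all 12 libraries, where the larger variation of the 96 h libraries enters, UNC93B1 kept its value of 0.15 and lost its call (adjusted p = 0.228).

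The other 9 members were not called at 24 h, and their log2 fold changes ran from -0.07 to 0.07. IRAK4, the kinase that starts the cascade, stood at 61.5, 60.0 and 59.7 CPM in vehicle and 56.5, 56.9 and 58.9 CPM with GSK591. The groups did not overlap, with GSK591 lower, and the test gave a log2 fold change of -0.07 ± 0.03 and an adjusted p of 0.108. Scaled by library size alone it was called lower (-0.09, adjusted p = 0.0456). TLR1 (0.07 ± 0.03, adjusted p = 0.158) and TLR10 (0.05 ± 0.02, adjusted p = 0.195) also had groups that did not overlap, with GSK591 higher. Higher groups without overlap were thus seen for 3 members, counting UNC93B1, and lower ones for 1, where 15.6% and 16.3% of all genes tested had them. TLR6, TLR7, TLR9, CD180, MYD88 and IRAK1 overlapped between the groups.

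At 96 h, 6 of the 10 members were called higher and 0 lower by edgeR: TLR1, TLR6, TLR10, CD180, TLR7 and UNC93B1. Over all 13514 genes tested at this time 20.7% were called higher and 19.6% lower (40.2% in all). DESeq2 called 6 members higher and 0 lower. At an unadjusted p under 0.05 edgeR had the same 6 members higher and 0 lower. No share of all genes at this cut or with DESeq2 is given here. The median log2 fold change was 0.18 for the members and 0.00 for all genes. The called receptors stood 12.3% to 47.1% above vehicle of the same time, and the signalling arm of MYD88, IRAK4 and IRAK1 had no call in either direction. In bulk RNA, more cells with a transcript and more of it per cell cannot be told apart.

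The 4 surface receptors were all called higher, and library 2 was the lowest of its group for each of them in vehicle and with GSK591. TLR1, which pairs with TLR2 to bind bacterial lipopeptides, stood at 45.7, 42.3 and 46.0 CPM in vehicle and at 62.7, 49.9 and 57.5 CPM with GSK591. The groups did not overlap. The log2 fold change was 0.34 ± 0.08, an increase of 26.75%, with an adjusted p of 0.0124. TLR6, which pairs with TLR2 for other lipopeptides, stood at 93.8, 87.6 and 93.8 CPM in vehicle and at 108, 98.4 and 103 CPM with GSK591. Its groups did not overlap either, but the step was smaller, 0.17 ± 0.06 on the log2 scale with an adjusted p of 0.0403. TLR2, the partner of both, stood below 1 CPM in all groups and was not tested.

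TLR10, the third gene of the chromosome 4 cluster and by exon length the highest receptor, stood at 148, 131 and 149 CPM in vehicle and at 210.5, 158.5 and 188 CPM with GSK591. The lowest treated library lay above the highest vehicle library by less than the SD of either group (10.3 and 26.1 CPM). Its log2 fold change was 0.38 ± 0.10 and its adjusted p 0.0165. CD180, which lacks the cytoplasmic domain of the toll-like receptors, stood at 125, 106 and 126 CPM in vehicle and at 174, 131 and 169 CPM with GSK591. Again the groups did not overlap, and the log2 fold change was 0.40 ± 0.11 with an adjusted p of 0.02. Without both libraries numbered 2 the log2 fold changes were 0.39 for TLR1, 0.17 for TLR6, 0.42 for TLR10 and 0.45 for CD180. Their adjusted p in that edgeR fit were 9.25e-06, 0.0026, 6.99e-06 and 5.51e-07. That fit used fewer libraries, left out those seen to stand apart, and called 8201 genes, against 5437 as reported.

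Several of these calls were lost with 1 library left out. Whether the smaller number of libraries or the values of the library left out did this was not tested. Without vehicle library 2 the surface receptors were not called: TLR1 had an adjusted p of 0.0565, TLR6 of 0.126, TLR10 of 0.0733 and CD180 of 0.0856. Without GSK591 library 1 the calls of TLR6 (0.165), TLR10 (0.0586) and CD180 (0.0758) were lost, and so they were without GSK591 library 3 (0.0955, 0.0554 and 0.0758). TLR6 also lost its call without vehicle library 1 (0.0941), without vehicle library 3 (0.0964) and with no filter on low counts (0.118). In each of these fits all 4 genes kept a positive log2 fold change. Of the 10 members, 1 was called without vehicle library 2, 3 without GSK591 library 1 and 2 without GSK591 library 3. Calls over all genes fell too, from 5437 to 3507 without vehicle library 2 and to 3438 without GSK591 library 1.

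**Figure D2:**
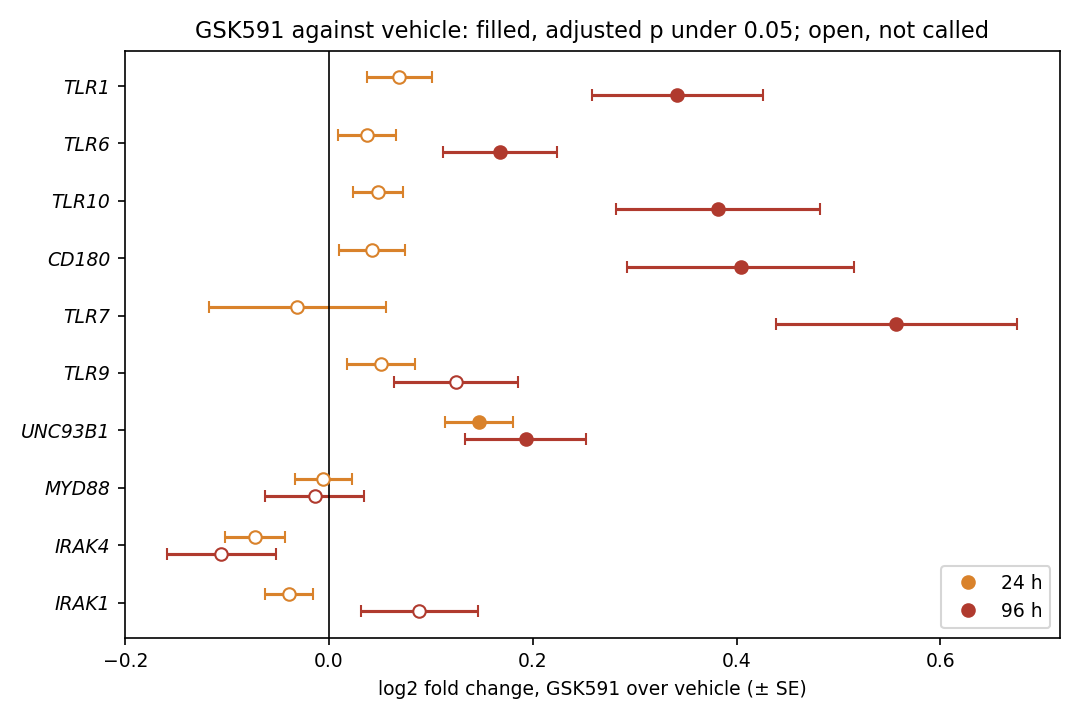
The log2 fold change of GSK591 over vehicle (horizontal axis, with its SE) is drawn for the 10 genes at 24 h and 96 h, filled where called. At 24 h the filled point is UNC93B1, and at 96 h the 4 surface receptors, TLR7 and UNC93B1 are filled, with MYD88 near 0 at both times.

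Of the 2 promoters shown here, that of CD180 belongs to a gene called higher at 96 h and that of TLR9 to one that was not. RefSeq sequences (GRCh38.p14) of 250 bases before a start were matched for 6 of the 10 members, TLR6, TLR9, CD180, MYD88, IRAK1 and IRAK4. They end at the outer edge of the annotated gene for 5 of them, and inside the gene for TLR6. Capitals mark a match to ATGCAAAT, the octamer bound by OCT factors of B cells, or to AGAGGAAG, a word of the kind bound by PU.1, on either strand.
CD180 (chr5:67196800-67197049, minus strand): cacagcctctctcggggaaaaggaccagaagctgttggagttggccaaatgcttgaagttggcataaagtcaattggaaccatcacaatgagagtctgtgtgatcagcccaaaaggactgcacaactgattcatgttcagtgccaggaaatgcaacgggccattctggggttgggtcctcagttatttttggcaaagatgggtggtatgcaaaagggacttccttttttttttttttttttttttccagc
TLR9 (chr3:52225646-52225895, minus strand): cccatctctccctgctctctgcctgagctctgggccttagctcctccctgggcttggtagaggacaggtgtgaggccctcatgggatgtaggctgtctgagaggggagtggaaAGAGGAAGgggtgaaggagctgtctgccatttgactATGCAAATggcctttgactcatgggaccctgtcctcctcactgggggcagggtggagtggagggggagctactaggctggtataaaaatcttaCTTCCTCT
The octamer was found in 1 of the 6 windows, TLR9, and in 1.63% of 35116 RefSeq windows of this length. AGAGGAAG was found in 2 of the 6, TLR9 and MYD88, and in 3.6% of all windows. The 2 words do not overlap each other in TLR9, and the CD180 window held no exact match to either.

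Of the endosomal receptors, TLR7 had the largest relative step of the 10 members at the lowest level. It stood at 4.63, 4.41 and 4.18 CPM in vehicle and at 7.36, 5.69 and 6.51 CPM with GSK591 at 96 h. Every treated library was above every vehicle library, and the log2 fold change was 0.56 ± 0.12, an increase of 47.1%, with an adjusted p of 0.0072. These levels rest on 204 to 2555 reads in a vehicle library and 352 to 371 in a treated one. TLR7 kept its call in all 14 other fits at 96 h, 6 of which left out 1 library, with adjusted p from 7.94e-05 to 0.0315.

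TLR9, the DNA sensor of the same compartment, was not called. It stood at 63.4, 58.6 and 65.3 CPM in vehicle and at 66.7, 65.8 and 71.85 CPM with GSK591 at 96 h, close together but without overlap. The log2 fold change was 0.12 ± 0.06 with a 95% interval from 0.01 to 0.24 and an adjusted p of 0.13. Without both libraries numbered 2 it was 0.11 and just called (adjusted p = 0.0484), in a fit that called 8201 genes against 5437 as reported.

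UNC93B1, which both endosomal receptors need, was called at 96 h as it was at 24 h. Its levels were 40.01, 37.6 and 39.0 CPM in vehicle and 42.4, 46.9 and 44.0 CPM with GSK591. Here library 2 was the lowest in vehicle and the highest with GSK591, and the groups did not overlap. The log2 fold change was 0.19 ± 0.06 with an adjusted p of 0.0302, and 0.13 (adjusted p = 0.0236) without both libraries numbered 2. The call was lost without vehicle library 1 (0.072), 2 (0.0925) or 3 (0.0985), without GSK591 library 3 (0.0731) and with no filter on low counts (0.0844).

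None of the 3 genes of the signalling arm was called at 96 h. MYD88, the adaptor, stood at 81.0, 82.0 and 81.3 CPM in vehicle and at 79.5, 78.4 and 84.0 CPM with GSK591 at 96 h. The groups overlapped, and the log2 fold change of -0.01 ± 0.05 had a 95% interval from -0.11 to 0.08 (adjusted p = 0.837). IRAK1, the kinase that IRAK4 acts on and the highest member per length in vehicle, stood at 141, 136 and 148 CPM in vehicle and at 144, 158 and 149.8 CPM with GSK591. Its groups overlapped as well, with a log2 fold change of 0.09 ± 0.06 and an interval from -0.02 to 0.20 (adjusted p = 0.241). The value of IRAK1 was 0.05 without GSK591 library 2, 0.06 without vehicle library 2 and 0.05 with no filter on low counts. IRAK4 stood at 68.6, 72.4 and 66.8 CPM in vehicle and at 62.3, 65.9 and 64.8 CPM with GSK591. It was the 1 member with GSK591 lower and no overlap, at both times, and at 96 h the value was -0.11 ± 0.05 (adjusted p = 0.141). In the fit of all 12 libraries IRAK4 was called lower at 96 h (-0.12, adjusted p = 0.0236). Without both libraries numbered 2 the values were 0.01 for MYD88 (adjusted p = 0.854), 0.02 for IRAK1 (0.64) and -0.09 for IRAK4 (0.0592). Groups without overlap were seen higher for 7 members and lower for 1 at 96 h, where 26.9% and 28% of all genes tested had them.

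**Figure D3:**
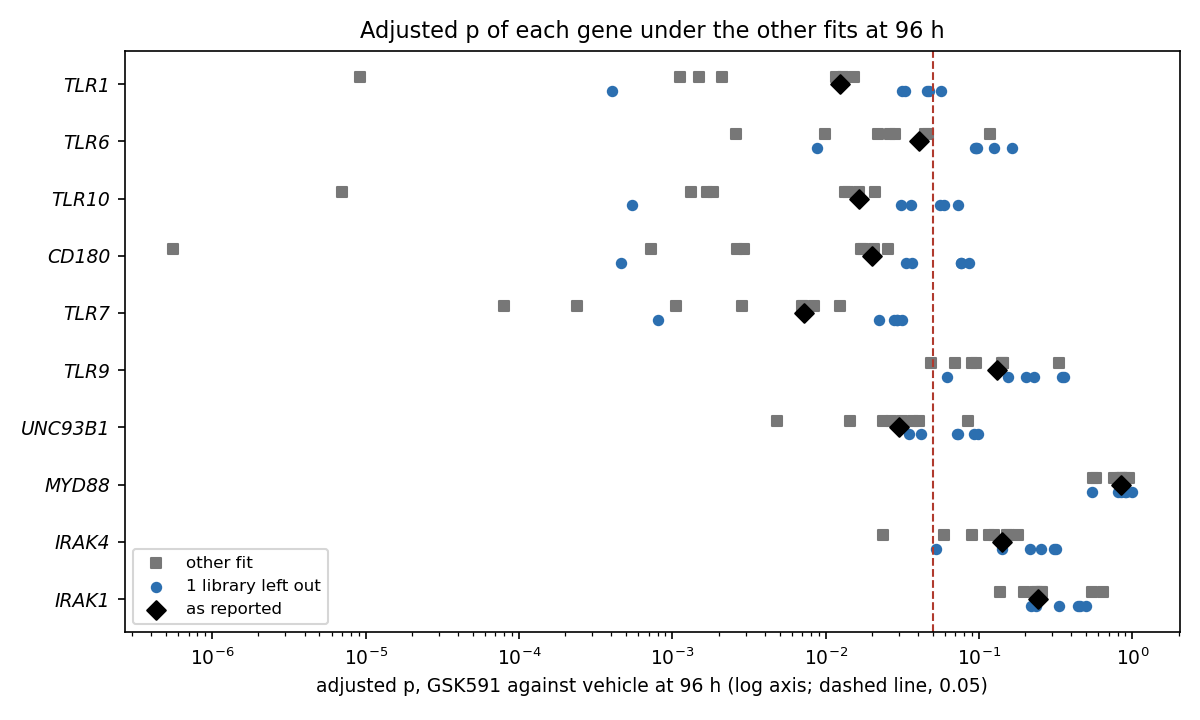
For each gene, the adjusted p of GSK591 against vehicle at 96 h (horizontal, log axis, dashed line at 0.05) is shown as reported (diamond), with 1 library left out (circles) and in the other fits (squares). The points of TLR7 all lie left of the line, those of MYD88 and IRAK1 all right of it, and the other 7 genes have points on both sides.

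Whether the response grew from 24 h to 96 h was tested as the difference of the 2 effects in a fit of all 12 libraries. TLR7 was the 1 member called: its log2 fold change was -0.03 ± 0.09 at 24 h and 0.56 ± 0.12 at 96 h, a difference of 0.57 ± 0.16 (adjusted p = 0.019). Over all 13665 genes tested, 24.1% were called, 11% with a positive and 13.2% with a negative difference. The sign alone does not say whether an effect grew or shrank. The differences of CD180 (0.35 ± 0.13, adjusted p = 0.0692), TLR10 (0.32 ± 0.11, 0.0551) and TLR1 (0.26 ± 0.10, 0.0648) were positive without passing the threshold. UNC93B1, at 0.15 and 0.19, had a difference of 0.03 with a 95% interval from -0.10 to 0.16 (adjusted p = 0.755). The call of TLR7 was lost without vehicle library 2 at 24 h, its highest vehicle library at 6.89 CPM (0.47, adjusted p = 0.052). Without GSK591 library 2 at 96 h, and without both 96 h libraries numbered 2, 5 members were called, TLR1, TLR6, TLR7, TLR10 and CD180. Those 2 fits also called more of all genes, 5712 (2781 positive) and 6022 (2815 positive), against 3298 (1499 positive) as reported.

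Levels in vehicle also differed between 24 h and 96 h for 8 of the 10 members, 3 higher and 5 lower at 96 h, against 24.2% and 23.5% of the 13665 genes tested (47.7% in all). The times were deposited as separate tables, so time and any separate handling cannot be told apart, and scaling the 12 libraries together shifted all 96 h values by -0.07 on the log2 scale against those of 24 h. With that scaling, TLR6 went from 74.2 to 89.8 CPM (0.28 ± 0.04, adjusted p = 0.000201), CD180 from 98.5 to 117 CPM (0.25 ± 0.09, 0.0416) and IRAK4 from 62.0 to 67.8 CPM (0.13 ± 0.04, 0.0181). Lower levels were found for TLR7, from 6.19 to 4.31 CPM (-0.51 ± 0.11, 0.00188), for UNC93B1 (-0.38 ± 0.05, 1.84e-05), IRAK1 (-0.35 ± 0.04, 1.27e-05), MYD88 (-0.28 ± 0.04, 8.53e-05) and TLR9 (-0.27 ± 0.05, 0.000854). The vehicle groups of these 8 genes did not overlap between the times, nor did those of TLR10 (-0.19 ± 0.08, adjusted p = 0.0665); non-overlap was found higher for 30.8% and lower for 30.3% of all genes. TLR10 was called lower with a replicate block (-0.19, adjusted p = 0.0219) and with vehicle library 1 of 96 h thinned in depth (-0.20, 0.0497). Scaled within each time, TLR7 had a vehicle level of 6.04 ± 0.816 CPM at 24 h and 4.40 ± 0.226 CPM at 96 h (SD, n = 3). With GSK591 it stood at 5.88 ± 0.1745 CPM at 24 h and 6.52 ± 0.833 CPM at 96 h. The call of CD180 in this comparison was lost without any 1 of the 24 h libraries or without library 1 or 3 of 96 h (adjusted p up to 0.141). That of IRAK4 was lost without library 2 or 3 of 24 h or library 2 of 96 h (up to 0.0677).

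Other genes of the pathway were counted from a list of 62 symbols, of which 60 were in the tables and 53 were tested at 96 h. At 24 h, 5 of 52 tested genes were called higher and 2 lower, against the 7.44% and 7.29% of all genes given above. The higher ones were CNPY3 (0.16 ± 0.02, adjusted p = 0.000183), a chaperone for toll-like receptors, IKBKB (0.13 ± 0.02, 0.00122), a catalytic subunit of the IKK complex, the deubiquitinase OTUD5 (0.12 ± 0.02, 0.00257), NFKB1 (0.11 ± 0.03, 0.0258) and IRF8 (0.07 ± 0.02, 0.0199). IRF3 (-0.10 ± 0.03, 0.0219) and the ubiquitin ligase PELI3 (-0.36 ± 0.11, 0.041, from 2.57 to 2.01 CPM) were lower. In the fit of all 12 libraries none of these 7 was called at 24 h, with adjusted p from 0.106 to 0.617. The calls of IRF3, IRF8 and NFKB1 were also lost without vehicle library 2, GSK591 library 1 or GSK591 library 3, IRF3 without vehicle library 3 as well, and IRF8 and NFKB1 with library size alone. PELI3 lost its call with DESeq2 and when any library but vehicle library 3 was left out.

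At 96 h, 13 pathway genes were called higher and 4 lower, beside 20.7% and 19.6% of all genes, and the median log2 fold change over the 53 was 0.06. CNPY3 (0.36 ± 0.05, adjusted p = 0.00148) and its relative CNPY4 (0.37 ± 0.09, 0.00953) were higher among 7 folding and trafficking genes. LY86, which CD180 needs at the surface, stood at 35.7, 35.5 and 36.4 CPM in vehicle and at 41.5, 42.1 and 45.4 CPM with GSK591. Its groups did not overlap (0.26 ± 0.06, adjusted p = 0.00788), and the call held in all 14 other fits. Reads of an antisense gene over LY86 cannot be told apart without a stated strand setting. Downstream of the receptors, IKBKB stood at 132, 129 and 132 CPM in vehicle and at 193, 225 and 189 CPM with GSK591 (0.63 ± 0.07, adjusted p = 0.000683), again without overlap. The kinase IRAK2 went from 2.70 ± 0.234 to 4.25 ± 0.634 CPM (0.65 ± 0.14, adjusted p = 0.0078). Among transcription factors IRF5 (0.39 ± 0.12, 0.0271) and IRF8 (0.21 ± 0.05, 0.0117) were higher and IRF3 (-0.26 ± 0.09, 0.0449) lower; IRF7 (-0.22 ± 0.13, 0.18) and the ubiquitin ligase TRAF6 (0.09 ± 0.06, 0.284) were not called. IRF7 was called lower without vehicle library 2 (-0.36, adjusted p = 0.0214), with a replicate block (-0.21, 0.0319) and without both libraries numbered 2 (-0.29, 6.73e-05). Without both, PELI3 (-0.52, 0.00151) was also called lower and NFKB1 (0.11, 0.0455) higher, in a fit that called 8201 genes against 5437 as reported. PELI3 was called lower without GSK591 library 2 alone (-0.55, 0.00397). The calls of IRF5 and IRF3 were lost without vehicle library 2 at 96 h (0.0891 and 0.0721), without GSK591 library 1 (0.102 and 0.131) and without GSK591 library 3 (0.0757 and 0.146). IRF3 was also lost without vehicle library 1 (0.101) or 3 (0.116), with library size alone (0.0653) and with a filter of 5 CPM in 3 libraries (0.0677), and IRF8 without vehicle library 1 (0.0686).

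CD14, a co-receptor of monocytes for lipopolysaccharide, had the largest log2 fold change of the list at 96 h (1.64 ± 0.35, adjusted p = 0.00751) at a level below 1 CPM, from 0.278 ± 0.136 to 0.889 ± 0.305 CPM. It rested on 7 to 159 reads in a vehicle library and 36 to 58 in a treated one. The 8 monocyte, macrophage and granulocyte markers, CD14 among them, summed to between 0.197 and 0.573 CPM in vehicle and between 0.877 and 1.46 CPM with GSK591 at 96 h, with 3 and 4 of the 8 at 0 counts. Of the other 7, CSF1R went from 0.0864 ± 0.0238 to 0.202 ± 0.0658 CPM and FCGR1A from 0.0402 ± 0.0399 to 0.119 ± 0.0171 CPM, both without overlap. LYZ stood at 0.0237 ± 0.0255 and 0.0524 ± 0.0558 CPM, with overlap, and CD163, S100A8 and S100A9 had 0 counts in both groups. The part of these transcripts in the other results was not tested. Of germinal centre genes, BCL6 stood at 472 ± 4.97 CPM in vehicle and 539 ± 16.4 CPM with GSK591 at 96 h, MME at 196 ± 10.95 and 214.6 ± 8.165 CPM, and MYBL1 at 94.9 ± 1.81 and 219 ± 22.8 CPM (SD, n = 3). Their part in the higher receptor levels was not tested. The remaining receptors TLR2, TLR3, TLR5 and TLR8 were below 1 CPM in every group, and TLR4 went from 3.54 to 2.42 CPM at 96 h without a call (-0.52 ± 0.20, adjusted p = 0.0644).

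**Figure D4:**
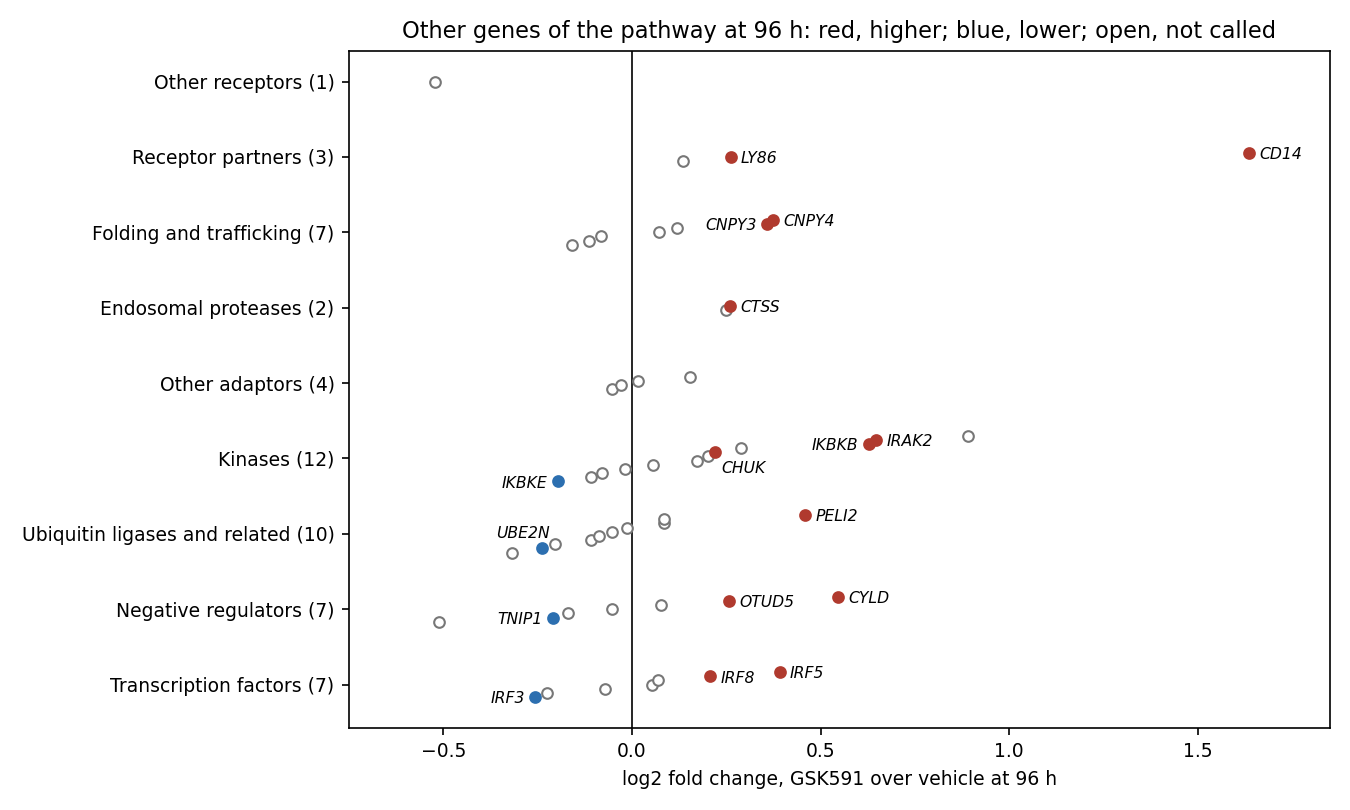
Each point is 1 tested gene of the pathway list, by role (rows, with the number tested) and log2 fold change of GSK591 over vehicle at 96 h (horizontal axis), red where called higher, blue where called lower and open where not called. Called genes are named: 13 are red, with CD14 farthest to the right, and 4 are blue.

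The authors' deposited table gave the same direction for the 10 members at 96 h. It listed an FDR of 0.000309 for TLR7, 0.00113 for TLR10, 0.0015 for CD180 and 0.00184 for TLR1. In the authors' deposited table TLR6 (0.0993) and UNC93B1 (0.0765) were above 0.05 at 96 h, both called here. That table lists 23368 genes, while the adjustment here ran over the 13514 tested. With no filter on low counts, edgeR lost both calls here too (adjusted p = 0.118 and 0.0844). For 24 h the authors' deposited table listed UNC93B1 with a log2 fold change of 0.13 and an FDR of 0.00959, and IRAK4 with an FDR of 0.0501.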

How the data were processed

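Per the labels' protocols, Trizol RNA of SUDHL6 cells was cleared of DNA, selected on poly-T beads and made into Illumina TruSeq libraries. The authors deposited raw read counts per gene symbol, 1 table for each time. Per the file headers, they also deposited log2 fold changes, average log2 CPM, p-values and FDR values. STAR, HTSeq, edgeR and the build hg19 (GRCh37) are named in the submitters' processing notes, and versions, annotation, strand setting and filters were not given in the sources used here. Gene places, promoters and transcripts come from GRCh38, so no coordinate of the count tables is given.

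Each time was fitted on its 6 libraries with edgeR 4.0.16 (R 4.3.3; filterByExpr, TMM, quasi-likelihood test, two-sided, Benjamini-Hochberg over all genes tested, threshold 0.05). The difference between the times and the vehicle comparison used all 12 libraries with 4 group means. An SE is the log2 fold change divided by the square root of F, and intervals are 1.96 SE to each side. With so few libraries these are narrower than 95% intervals of the test. That of TLR9 at 96 h left out 0 at an unadjusted p of 0.0709 in the edgeR test. The common biological coefficient of variation was 2.35% at 24 h and 8.19% at 96 h. Total counts were 48.5 to 64.4 M, and 548 M in 1 library. No pair of replicates agreed within sampling noise, and all were kept. The fits were tested on simulated counts. Alternatives were library size alone, DESeq2 1.42.0, no filter, a filter of 5 CPM in 3 samples, a replicate block, each library left out, all 12 samples in 1 fit, the deepest library thinned, and both 96 h libraries numbered 2 left out.

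The members, the pathway list and the markers were chosen with earlier results of these data known. All members are named, with pathway genes called at 24 h or changed at least 1.5-fold and called at 96 h, LY86, IRF5, IRF7 and TRAF6, and for each member the 2 genes with the highest Pearson correlation over the 12 libraries. CNPY4, TLR4, the single monocyte markers, SLC15A4, PELI1, BCL6, MME, MYBL1 and the called pathway genes named in a figure were picked after their values were seen. Another gene of the marker lists is not reported here.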

Additional observations from a re-analysis of the deposited data

Results flagged for a closer look

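These results, for TLR7 and for named pathway genes, were singled out because the effect of GSK591 differed between 24 h and 96 h by a test of the difference itself (edgeR quasi-likelihood, all 12 libraries). For TLR7, the effect at 96 h minus that at 24 h was 0.57 ± 0.16 (SE) on the log2 scale, adjusted p = 0.019. The chaperone gene CNPY3 had a difference of 0.19 ± 0.05 (adjusted p = 0.021) and was called higher at both times. IKBKB, higher at both times as well, had a difference of 0.48 ± 0.07 (adjusted p = 0.00092). For IRAK2 the difference was 0.73 ± 0.20 (adjusted p = 0.018), and its 24 h value of -0.10 ± 0.15 was not called. The CD180 partner LY86 had a difference of 0.32 ± 0.08 (adjusted p = 0.0106), from -0.07 ± 0.04 at 24 h, not called, to 0.26 ± 0.06 at 96 h. Without GSK591 library 2 at 24 h, LY86 was called lower at that time (-0.13, adjusted p = 0.0263). Of the 53 pathway genes tested, 6 had a positive and 5 a negative difference by this test, beside 11% and 13.2% of all 13665 genes. The positive ones also held CYLD (0.47 ± 0.09, adjusted p = 0.0028) and CNPY4 (0.32 ± 0.10, 0.0359). The negative ones were UBE2N (-0.27 ± 0.06, 0.0073), IKBKE (-0.26 ± 0.05, 0.00495), TNIP1 (-0.255 ± 0.05, 0.00286), SLC15A4 (-0.19 ± 0.06, 0.0452) and PELI1 (-0.17 ± 0.06, 0.0404). These 5 genes were not called at 24 h, with log2 fold changes from 0.01 (UBE2N) to 0.05 (PELI1). At 96 h their values were negative, from -0.24 (UBE2N) to -0.11 (PELI1), and UBE2N, IKBKE and TNIP1 were called lower.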

How the results depend on the processing

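The genes called at 24 h numbered 1940, ranged from 980 to 2208 with 1 library left out, and fell to 29 with all 12 samples in 1 fit. Members called there went from 1 to 2 with library size alone and to 0 with all 12 samples. At 96 h the 5437 genes called ranged from 3438 to 7485 with 1 library left out and were 8201 without both libraries numbered 2; the 6 members called ranged from 1 to 6 with 1 library left out. For the difference between the times, 3298 genes were called, 1991 to 5712 with 1 library left out and 6022 without both libraries numbered 2. The 1 member called there ranged from 0 to 5 with 1 library left out, and was 3 with library size alone, 3 with DESeq2, 3 with the filter of 5 CPM, 2 with the deepest library thinned and 5 without both libraries numbered 2. In the vehicle comparison the count of genes stayed within 1.5 times of 6516 in all 12 other fits. The causes were not tested.

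The labels give replicate numbers and do not say that libraries of 1 number are pairs. Deviations of same-numbered vehicle and GSK591 libraries correlated at 0.0513, 0.285 and 0.0831 at 24 h and at 0.499, 0.33 and 0.0312 at 96 h. Those of different-numbered libraries ran from -0.162 to 0.0831 at 24 h and from -0.463 to 0.284 at 96 h. Whether same-numbered libraries are pairs was not tested. With the replicate number as a block, 1 member was called at 24 h, 6 at 96 h, 9 in the vehicle comparison (TLR10 joined) and 4 for the difference, where TLR1 (0.26, adjusted p = 0.0154), TLR10 (0.32, 0.00458) and CD180 (0.34, 0.0022) joined TLR7.

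Signs turned for uncalled values near 0. At 24 h these were TLR7 (0.072 without vehicle library 2), MYD88 (0.014 without vehicle library 2, 0.015 without GSK591 library 3), IRF5 (0.017 without vehicle library 1, 0.036 without GSK591 library 3) and IRF7 (-0.0082 with library size alone, -0.033 without vehicle library 2, -0.12 without GSK591 library 1). At 96 h it was MYD88 (0.00076 without GSK591 library 2, 0.0096 without both numbered 2). For the difference these were MYD88 (0.012 with library size alone, 0.0051 without GSK591 library 2 at 96 h, 0.0016 without both numbered 2) and UNC93B1 (-0.0048 and -0.036 in the latter 2 fits). In the vehicle comparison it was TLR1 (-0.0036 without library 3 at 24 h, -0.0061 and -0.0091 without library 1 or 3 at 96 h). With 1 library left out, MYD88 ran from -0.018 to 0.015 at 24 h, from -0.045 to 0.00076 at 96 h and from -0.0595 to 0.0051 for the difference, UNC93B1 from -0.0048 to 0.062 for the difference, IRF7 up to 0.096 at 24 h and TLR1 up to 0.044 in the vehicle comparison.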

Other observations

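Over the 12 libraries, the log2 CPM of CD180 followed that of TLR6 (Pearson r = 0.937) and TLR1 (0.888), and TLR9 followed UNC93B1 (0.924) and IRAK1 (0.906), while TLR6 ran opposite to MYD88 (-0.926). The libraries share 4 groups and 2 times, so these values describe the pattern and carry no test. Among 11096 other genes with at least 1 CPM in every group, those with the pattern most like a member were TTYH3 (0.995) and SIT1 (0.993) for CD180, APOL6 (0.996) and PNRC1 (0.994) for TLR6, NPAT (0.984) and KDM3A (0.984) for TLR1, and TNS3 (0.974) and SETBP1 (0.974) for TLR10. For TLR7 they were KAT6A (0.931) and TMEM43 (0.93), and for TLR9 AP3D1 (0.973) and NAGPA (0.967). UNC93B1 was nearest to MRPL52 (0.985) and SF1 (0.982), MYD88 to TRAPPC2L (0.991) and MARCKSL1 (0.989), IRAK1 to KIAA0754 (0.986) and PRKAR1B (0.983), and IRAK4 to FRG1B (0.967) and CDC25C (0.957).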
